A study of Mus musculus with 16 samples.

Results

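The nuclear and mitochondrial genes of oxidative phosphorylation were described in whole mouse retina after optic nerve crush. Members were all genes whose symbol starts with Nduf, Uqcr, Atp5 or Cox4 to Cox8, the genes Sdha to Sdhd, and the mitochondrially encoded genes of the Nd, Co, Cytb and Atp families. The rule used names only, no measured value. It found 98 of the 19495 genes held in all 3 deposited tables, 91 of them nuclear and 7 mitochondrially encoded (mt-Nd1, mt-Nd2, mt-Nd4, mt-Nd5, mt-Nd6, mt-Cytb and mt-Co1).

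All mice were adult C57BL/6 animals of around 6 weeks. In the GFP, HDAC5AA and HDAC5DAD groups an AAV2 vector for the named gene was injected into the vitreous, aimed at the retinal ganglion cells. After 2 weeks the optic nerve was crushed, about 1 mm from the disc and for 3 seconds, and the whole retina was taken 4 days after that. Uninjured retinas had no crush, and no virus is named for them, so crush and virus cannot be told apart in any comparison with them. HDAC5 is a class IIa histone deacetylase; the changes meant by AA and DAD are not explained in the labels. GFP replicates 2 to 4 were used (replicate 1 was not analysed here), with 4 libraries in each of the HDAC5AA, HDAC5DAD and Uninjured groups. Nothing states that replicates are separate animals, so p-values set group differences only against the spread between these libraries, which may be technical variation.

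Oxidative phosphorylation is carried out by 5 complexes of the inner mitochondrial membrane. Complex I (NADH dehydrogenase) and complex II (succinate dehydrogenase) pass electrons to ubiquinone, complex III passes them to cytochrome c, complex IV (cytochrome c oxidase) passes them to oxygen, and complex V makes ATP from the resulting proton gradient. Most subunits are encoded in the nucleus and imported, while a few membrane subunits of complexes I, III, IV and V are encoded and transcribed inside the mitochondrion. In the retina, photoreceptor inner segments and ganglion cell axons ahead of the optic disc are known to be rich in mitochondria.

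Libraries held 10940144 to 30974058 reads, recovered as whole numbers from the deposited normalized counts. Ribosomal RNA features took 0.163 to 10.97% of the reads. The 8 features counted were mt-Rnr1, mt-Rnr2, Lars2, Gm15564, CT010467.1, Mir6236, Gm25732 and Gm23935. As mt-Rnr1 and mt-Rnr2 are mitochondrial RNAs, a division of libraries by this share is not independent of mitochondrial RNA. They took at least 1% in 9 libraries (all GFP libraries, HDAC5AA replicates 3 and 4, HDAC5DAD replicates 1 and 4, Uninjured replicates 1 and 4) and under 1% in the other 6. Of the cell type lists, markers of retinal ganglion cells fell in 12, 11 and 12 of 14 genes in GFP, HDAC5AA and HDAC5DAD retinas against Uninjured, and markers of microglia and macrophages rose in 9 of 10 in each. Calls were fewer for rods (0 up and 3 down, 0 and 1, 1 and 2 of 12), cones (0 and 1, 0 and 0, 0 and 0 of 8), bipolar cells (0 and 4, 0 and 1, 0 and 2 of 8), amacrine cells (0 and 1, 0 and 1, 0 and 3 of 8) and horizontal cells (0 and 1 of 6 in each). The same held for Mueller glia (3 and 1, 2 and 1, 4 and 1 of 8), endothelial cells (0 and 0, 2 and 0, 2 and 0 of 8), pericytes and smooth muscle (0 and 0, 0 and 0, 0 and 1 of 10) and retinal pigment epithelium (0 and 0, 0 and 1, 0 and 0 of 8). In each bracket the order is GFP, HDAC5AA and HDAC5DAD. In bulk retina, fewer cells of a type and less RNA per cell cannot be told apart.

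Every member had a mean of at least 1 normalized read and entered the tests. The means ran from 9.52 reads for Cox8b to 68149 reads for mt-Co1; 50 members averaged at least 1000 reads and 7 under 100. The nuclear set has 44 genes of complex I (7 core subunits, 29 supernumerary subunits and 8 Ndufaf assembly factors, which are not part of the finished enzyme), 4 of complex II, 8 of complex III, 18 of complex IV and 17 of complex V. Atp5s and Atp5sl match the rule by name but are not subunits of the synthase. Ndufa4 and Ndufa4l2 were counted with complex IV, where Ndufa4 is now placed. Cyc1, a core subunit of complex III, lies outside the naming rule. No mitochondrially encoded gene of complex V was analysed here, nor were mt-Co2, mt-Co3, mt-Nd3 and mt-Nd4l.

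Per kilobase of exon, 3 mitochondrially encoded genes, mt-Co1, mt-Nd1 and mt-Cytb, were the most abundant members in each group. mt-Co1, the catalytic subunit of complex IV, stood at 47796 normalized reads per kb in GFP, 43438 in HDAC5AA, 41061 in HDAC5DAD and 45064 in Uninjured retinas. mt-Cytb, the membrane subunit of complex III, stood at 11368, 10738, 8709 and 10746 reads per kb in the same order. mt-Nd1, which lines the quinone site of complex I, was the highest of the complex I genes, with 14877, 14010.3, 11275 and 13899 reads per kb.

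The median nuclear member of each complex lay lower. The 5 mitochondrially encoded genes of complex I had a median of 2991 reads per kb in GFP, 3040 in HDAC5AA, 2309 in HDAC5DAD and 2846 in Uninjured retinas. For complex I the nuclear median was 512 reads per kb in GFP, 517 in HDAC5AA, 552 in HDAC5DAD and 575 in Uninjured retinas, and for complex III it was 857, 925, 931 and 995. For complex IV the medians were 578, 623, 678 and 608. Complex II medians were 659, 685, 735 and 694. The highest nuclear members were Atp5b, the catalytic beta subunit of ATP synthase (5151, 5511, 5668 and 5892 reads per kb), and Cox8a (5222, 5457, 5466 and 5672).

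**Figure D1:**
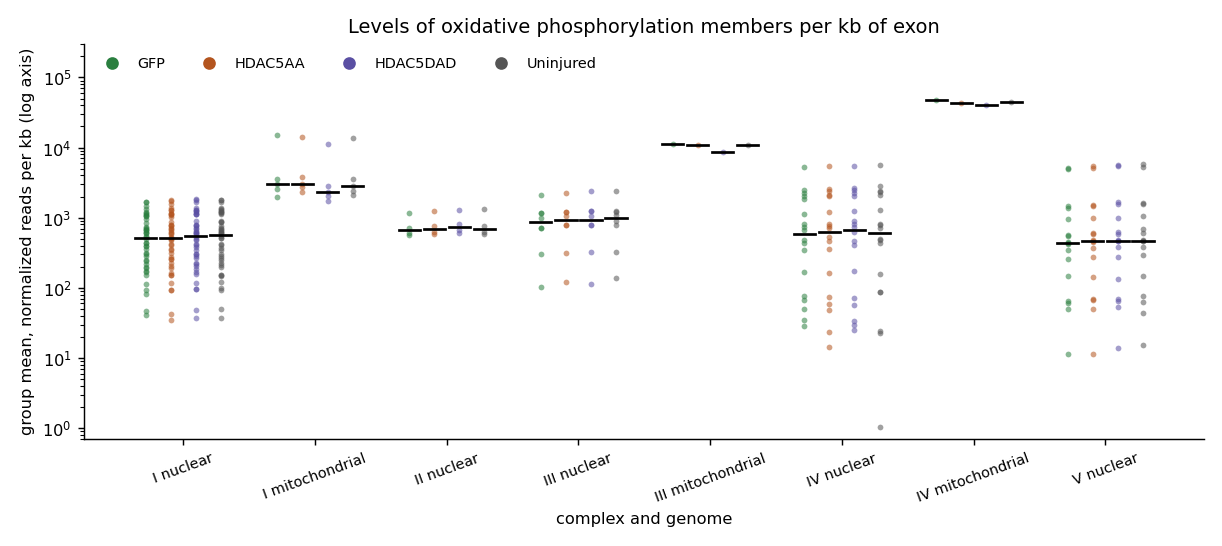
Mean level of each member in each group, in normalized reads per kb of exon on a log axis, by complex and by genome of origin (1 point per gene and group, with a line at the median). mt-Co1 lies above all other members in the 4 groups, and Cox6a2 in Uninjured retinas, at 1.04, is the lowest point.

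Summed over genes, nuclear members took 0.730 ± 0.0037% of the reads outside ribosomal RNA in GFP (SD, n = 3), 0.755 ± 0.020% in HDAC5AA, 0.787 ± 0.033% in HDAC5DAD and 0.774 ± 0.028% in Uninjured retinas (SD, n = 4 each). The GFP libraries lay within 0.727 to 0.734%, and the lowest Uninjured library, replicate 2, was at 0.735%, so the groups did not overlap but nearly touched. Mitochondrially encoded members took 0.616 ± 0.11% in GFP, 0.567 ± 0.044% in HDAC5AA, 0.506 ± 0.079% in HDAC5DAD and 0.563 ± 0.058% in Uninjured retinas. These 4 groups overlapped. For counting error, in HDAC5AA replicate 4, the shallowest library, the 95% Wilson interval of the nuclear share was 0.724 to 0.734%. That width is small beside the spread of nuclear shares within the HDAC5AA, HDAC5DAD and Uninjured groups. It is not small beside the 0.727 to 0.734% of the GFP libraries, or beside their gap to Uninjured replicate 2.

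**Figure D2:**
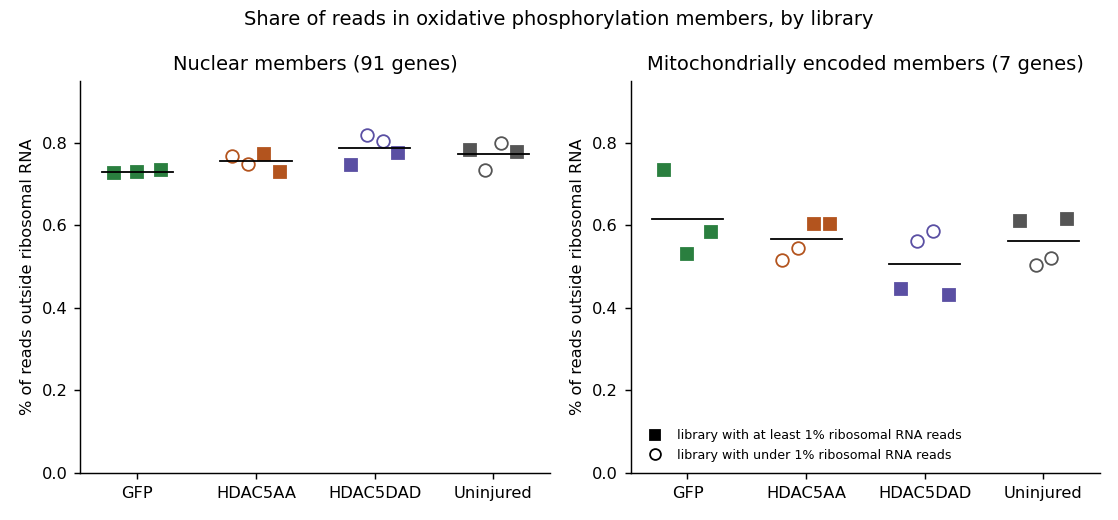
Share of reads outside ribosomal RNA taken by nuclear and by mitochondrially encoded members in each library, in percent, with filled squares for at least 1% ribosomal RNA, open circles for less and lines for group means. GFP libraries sit between 0.727 and 0.734% for nuclear members, and HDAC5DAD replicates 1 and 4 are the lowest for mitochondrially encoded members.

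The ratio of mitochondrially encoded to nuclear reads was taken within complexes I, III and IV. For complex I it was 0.630 ± 0.077 in GFP, 0.602 ± 0.079 in HDAC5AA, 0.454 ± 0.049 in HDAC5DAD and 0.556 ± 0.091 in Uninjured retinas. For complex III it was 1.12 ± 0.12, 1.01 ± 0.15, 0.792 ± 0.078 and 0.973 ± 0.16, and for complex IV 3.72 ± 0.83, 3.24 ± 0.24, 2.93 ± 0.38 and 3.19 ± 0.25. HDAC5DAD libraries overlapped Uninjured ones in each complex. In complexes I and III all HDAC5DAD libraries lay below all GFP libraries. The HDAC5DAD mean was also the lowest there in both ribosomal RNA classes. Under 1% it lay close to the Uninjured mean, with overlapping libraries and no GFP library to compare. Only in complex IV did the place of HDAC5DAD change with the class, and GFP libraries were widely spread there. In complex IV, GFP replicate 2 stood at 4.61 and the other GFP libraries at 2.97 and 3.58. There the HDAC5DAD libraries had 2.71 and 2.51 at 1% ribosomal RNA or more and 3.17 and 3.32 under 1%, against 3.34 and 3.43 and then 2.89 and 3.09 in Uninjured libraries. By group mean, 69 of 91 nuclear members were lowest in GFP, whereas 7 of 7 mitochondrially encoded members were lowest in HDAC5DAD.

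After crush with GFP virus, 15 nuclear members fell and 1 rose against Uninjured, and the changes other than Cox6a2 were small. The members that fell were 7 genes of complex I, 1 of complex III, 4 of complex IV and 3 of complex V, with log2 fold changes from -0.34 to -0.20. Called genes made up 5.83% lower and 5.57% higher of all 19961 genes in this comparison (limma, Benjamini-Hochberg adjusted p under 0.05). The 15 members below Uninjured were 15.3% of the 98, a share that was 4.08 to 17.3% under the alternatives given further on. Of the 91 nuclear members, 77 had a negative fold change and the median was -0.12 on the log2 scale. Over all genes tested 48.6% were negative with a median of 0.0066, and over genes with a mean of at least 100 reads 56.4% were negative with a median of -0.022. Without overlap between groups, 31 nuclear members lay below Uninjured and 3 above, against 11.2% and 10.6% of all genes.

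Negative fold changes were found in each complex. In complex I, 36 of 44 nuclear genes were negative (median -0.11), in complex II 4 of 4 (median -0.077), in complex III 8 of 8 (median -0.15), in complex IV 13 of 18 (median -0.12) and in complex V 16 of 17 (median -0.15). The assembly factors of complex I stood apart in sign, with 3 of 8 negative and a median of 0.0086, and 0 of 8 were called. The 5 F1 subunits of ATP synthase, the catalytic head, were all negative with a median of -0.15.

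**Figure D3:**
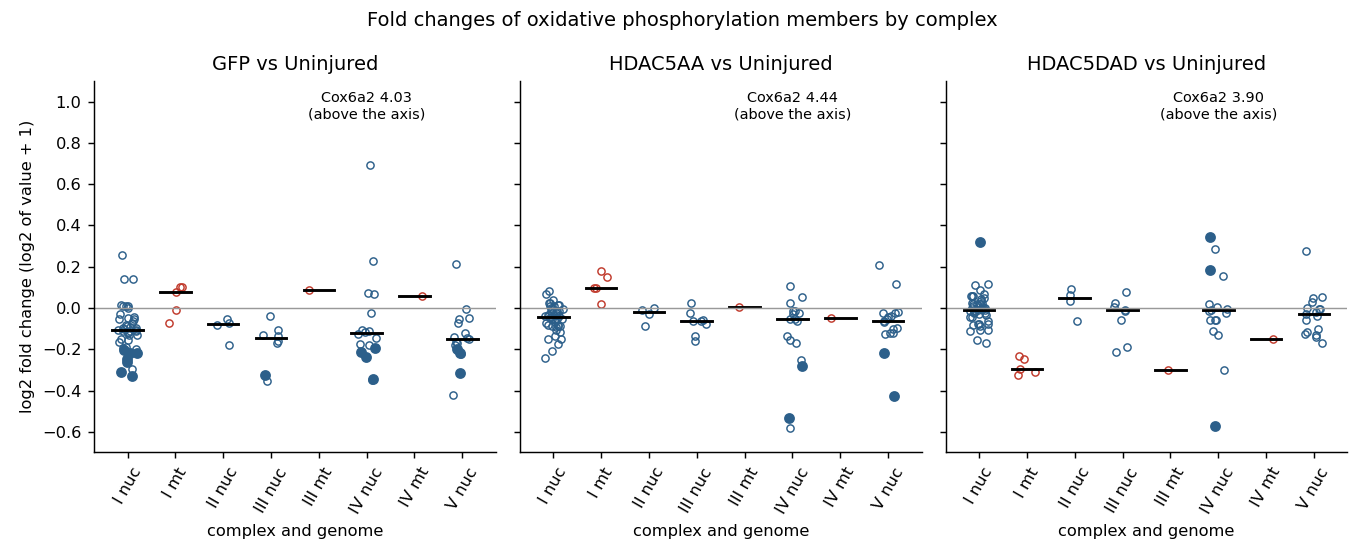
Log2 fold change of each member against Uninjured in GFP, HDAC5AA and HDAC5DAD retinas, by complex and genome of origin, with called members filled and a line at the median. In GFP most nuclear points lie under 0, and in HDAC5DAD the 7 mitochondrially encoded points lie under 0 without being called; Cox6a2, off the scale, is written in.

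Cox5a, a nuclear subunit that joins the assembling complex IV early, had 738, 654 and 793 normalized reads in GFP libraries and 859, 729, 722 and 726 in HDAC5AA libraries. It had 807, 896, 841 and 870.1 reads in HDAC5DAD libraries, against 999.6, 886, 915 and 879.7 in Uninjured libraries. All GFP and HDAC5AA libraries lay below all Uninjured ones, and HDAC5DAD libraries overlapped them. The fold change was -0.34 ± 0.07 in GFP (log2 ± SE, limma adjusted p = 0.00283), -0.28 ± 0.07 in HDAC5AA (limma adjusted p = 0.0102) and -0.11 ± 0.06 in HDAC5DAD (limma adjusted p = 0.307).

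Atp5g3 is one of 3 genes for the same mature c subunit, which forms the proton-driven ring of ATP synthase. It had 1181, 1190.2 and 1275 reads in GFP, 1440.3, 1257, 1328 and 1179 in HDAC5AA libraries and 1203, 1499.8, 1419 and 1381 in HDAC5DAD libraries, against 1527, 1538, 1483 and 1485 in Uninjured libraries. GFP and HDAC5AA libraries again lay wholly below the Uninjured ones. The gene fell by 0.32 ± 0.06 in GFP (limma adjusted p = 0.000604) and by 0.22 ± 0.06 in HDAC5AA (limma adjusted p = 0.0256), and stood at -0.14 ± 0.06 in HDAC5DAD (limma adjusted p = 0.185). Its paralogues Atp5g1 and Atp5g2 were not called, and its share of the 3 genes per kb was 83.4 ± 0.23% in GFP, 83.5 ± 1.6% in HDAC5AA and 84.3 ± 1.5% in HDAC5DAD, against 86.7 ± 1.2% in Uninjured retinas.

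In complex I, Ndufa11, a supernumerary membrane subunit, had 750.1, 819 and 757 reads in GFP, 860.0, 864, 833 and 850.2 in HDAC5AA libraries and 799, 938, 849.6 and 869 in HDAC5DAD libraries, against 1003, 941, 976 and 921 in Uninjured libraries. The GFP libraries lay below all others except 1 HDAC5DAD library. It fell by 0.31 ± 0.06 in GFP (limma adjusted p = 0.00197), with -0.17 ± 0.06 in HDAC5AA (limma adjusted p = 0.0637) and -0.16 ± 0.06 in HDAC5DAD (limma adjusted p = 0.116). Ndufs8, a core subunit that carries iron-sulfur clusters, fell by 0.22 ± 0.06 in GFP (limma adjusted p = 0.0278), the 1 core subunit of 7 that was called. Ndufa8, Ndufs6, Ndufb11, Ndufb8 and Ndufa13, all supernumerary, fell by 0.33, 0.26, 0.25, 0.22 and 0.20. The fold change of Ndufa8 rests in part on Uninjured replicate 2, at 596 reads against 427 to 439.9 in the other Uninjured libraries.

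The other called members were spread over complexes III to V. Uqcr11, a small subunit of complex III, fell by 0.32 ± 0.09 in GFP, where its libraries overlapped with Uninjured ones. In complex IV, Cox7a2, Cox6a1 and Ndufa4 fell by 0.24, 0.22 and 0.20. In complex V, Atp5k (subunit e) and Atp5b fell by 0.22 and 0.20. Of 19 alternatives, 12 lost the call of Cox7a2, 3 that of Cox6a1, 8 that of Ndufa4, 13 that of Atp5k and 8 that of Atp5b. Atp5b had 22943, 20861 and 21665 reads in GFP against 26216, 24330.3, 25629 and 23681 in Uninjured libraries, without overlap (limma adjusted p = 0.0222). None of the 4 complex II genes was called; Sdha, the flavoprotein that oxidises succinate, came closest in GFP at -0.18 ± 0.06 (limma adjusted p = 0.0583), and the highest of the 4 there was at -0.051.

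Leaving out 1 library changed the number of members that fell in GFP. It was 6 without GFP replicate 2 (6.12% of members, beside 4.85% of all genes called lower), 9 without GFP replicate 3 (9.18% beside 3.97%), 5 without GFP replicate 4 (5.1% beside 4.05%) and 8 without Uninjured replicate 1 (8.16% beside 4.15%). Against the 2 Uninjured libraries with at least 1% ribosomal RNA it was 7 (7.14% beside 3.87%), with a nuclear median of -0.14. With the ribosomal RNA class as a term it was 4 (4.08% beside 3.46%), so the excess of members over all genes was small there and without GFP replicate 2 or 4. Atp5g3, Cox5a and Ndufa11 were called under every alternative run. Beside these results, the summed rod markers stood at 1473927 to 1630495 reads in GFP against 1674310 to 1771525 in Uninjured libraries, without overlap, and the ganglion cell markers at 10349 to 11735 against 20889.7 to 23354. Amacrine markers stood at 12543 to 13893 against 15575 to 17434, bipolar markers at 23316 to 24508 against 24913 to 28502, horizontal cell markers at 4774 to 5343 against 5707 to 5935 and cone markers at 25273 to 25425 against 25601 to 28653, all without overlap. Mueller glia markers overlapped, at 87057 to 91182 against 88434 to 95281. No defining marker of the rod or ganglion cell list was at 0 in any group, and the part of these cells in the result was not tested.

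**Figure D4:**
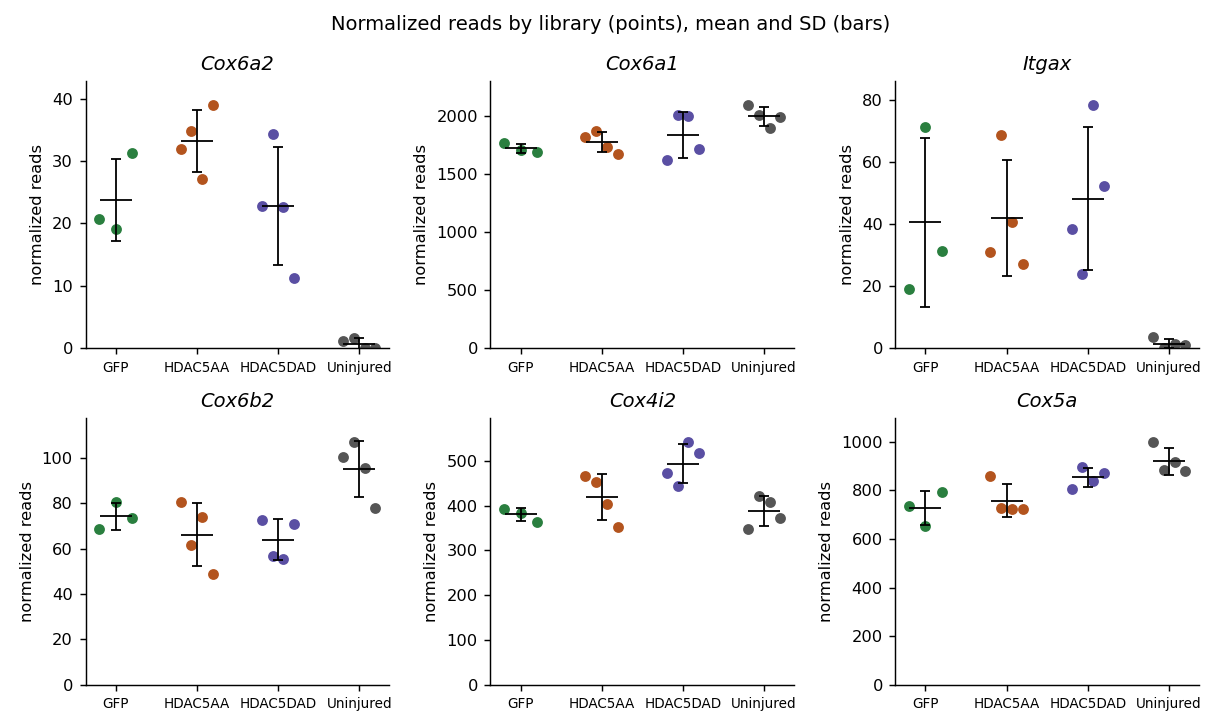
Normalized reads of 5 members and of Itgax in each library (points), with the group mean and SD (bars); each axis starts at 0. GFP libraries of Cox5a lie between 654 and 793 reads, below the 879.7 to 999.6 of Uninjured libraries, and Cox6a2 has at most 1.67 reads in Uninjured libraries.

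Promoters of members that fell in both GFP and HDAC5AA, Cox5a and Atp5g3, are shown as the regulatory sequence nearest to this result. They run from 250 bases before to 50 after the start listed by RefSeq (GRCm38.p6). Capitals mark a motif searched on both strands: the NRF1 palindrome, CCGGAAG (ETS, the family of GABP), AAGATGGCG (YY1), TCAAGGTCA (ERR) and the MEF2 motif, factors linked to mitochondrial genes or, for MEF2, to class IIa HDACs. Cox5a, plus strand of chr9:57520982-57521281, has none. Atp5g3, minus strand of chr2:73911277-73911576, has 1 ERR match.
Cox5a: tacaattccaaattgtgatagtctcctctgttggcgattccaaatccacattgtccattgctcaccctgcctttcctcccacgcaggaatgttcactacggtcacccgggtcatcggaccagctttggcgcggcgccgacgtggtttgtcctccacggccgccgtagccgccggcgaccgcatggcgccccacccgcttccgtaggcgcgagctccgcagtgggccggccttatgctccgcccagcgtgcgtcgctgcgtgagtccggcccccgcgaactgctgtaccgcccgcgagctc
Atp5g3: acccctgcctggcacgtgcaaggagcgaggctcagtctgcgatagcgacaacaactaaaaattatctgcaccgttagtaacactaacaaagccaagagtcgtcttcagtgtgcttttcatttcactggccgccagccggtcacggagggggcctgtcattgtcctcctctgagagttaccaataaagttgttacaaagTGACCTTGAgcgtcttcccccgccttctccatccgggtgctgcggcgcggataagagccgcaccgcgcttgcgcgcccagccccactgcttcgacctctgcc

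Of the 91 nuclear members, 76 matched a promoter in the RefSeq table. An NRF1 motif was in 7 of the 76 (9.21%) against 1.07% of 27025 genes in the table, and an ETS motif in 18 (23.7%) against 9.93%. A YY1 motif was in 9 (11.8%) against 1.64%, ERR in 2 (2.63%) against 0.466% and MEF2 in 2 (2.63%) against 4.23%. No motif searched is contained in another. A match is a description of letters, not of binding.

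In HDAC5AA retinas 4 members fell against Uninjured (Cox5a, Atp5g3, Atp5l and Cox6b2) and 1 rose (Cox6a2). Over all 19714 genes 3.17% were called lower and 5.38% higher, so the share of members called was near or under the background. Of the 91 nuclear members 74 had a negative fold change, with a median of -0.051, against 51.9% negative and a median of -0.0064 over all genes tested. Below Uninjured without overlap were 8 nuclear members and above it 1, against 5.56% and 7.11% of all genes.

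Atp5l, subunit g at the dimer interface of ATP synthase, had 73.1, 75, 67.9 and 79.8 reads in HDAC5AA libraries, against 115, 104, 91.3 and 90.3 in Uninjured libraries. The groups did not overlap, and the gene fell by 0.43 ± 0.13 (limma adjusted p = 0.0463). The call was lost under 13 of 21 alternatives, DESeq2 among them. In GFP Atp5l was at -0.42 ± 0.14 (limma adjusted p = 0.0534) and in HDAC5DAD at -0.17 ± 0.15 (limma adjusted p = 0.575). No member was called lower in HDAC5AA without Uninjured replicate 1, where 2.26% of all genes were. When any other single library was left out 2 or 3 were called (2.04 or 3.06%, beside 2.41 to 3.08% of all genes).

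In HDAC5DAD retinas 4 members rose (Cox6a2, Cox4i2, Ndufaf6 and Cox7a2l) and 1 fell (Cox6b2), against 7.8% of all 19956 genes called higher and 5.47% lower. Of the nuclear members 55 of 91 were negative and the median was -0.0094, close to that of all genes tested, -0.0071. Above Uninjured without overlap were 5 nuclear members and below it 1, against 9.33% and 7.14% of all genes.

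Cox4i2, the isoform of subunit 4 known from lung and from low oxygen, had 473, 443, 542 and 517 reads in HDAC5DAD libraries, against 348, 422, 408 and 372 in Uninjured libraries. The groups did not overlap, and it rose by 0.35 ± 0.08 (limma adjusted p = 0.00632). GFP libraries had 393, 384 and 364 reads and HDAC5AA libraries 466, 453, 405 and 352, both overlapping Uninjured (limma adjusted p = 0.895 and 0.641). Its share of the 2 subunit 4 genes per kb was 17.7 ± 0.70% in GFP, 18.2 ± 2.1% in HDAC5AA and 20.3 ± 1.9% in HDAC5DAD, against 16.9 ± 1.5% in Uninjured retinas. Cox4i1, the general isoform, was not called in HDAC5DAD at 0.02 ± 0.05.

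Ndufaf6, an assembly factor of complex I, had 212, 245, 217 and 229 reads in HDAC5DAD libraries, against 197, 155, 185 and 187 in Uninjured libraries. It rose by 0.32 ± 0.10 without overlap (limma adjusted p = 0.0339). Cox7a2l, counted here with complex IV, had 1221, 1399.8, 1312 and 1301 reads, against 1150.4, 1108, 1188 and 1152, and rose by 0.18 ± 0.06 (limma adjusted p = 0.036). Each of these small rises was lost under 9 of 21 alternatives. Without Uninjured replicate 2 or 4 or HDAC5DAD replicate 2, 3 or 4, 2 members were called higher in place of 4 (2.04%, beside 6.2 to 7.18% of all genes). Pericyte and smooth muscle markers, the cells where Cox4i2 is known to be high, were lower for 1 of 10 in HDAC5DAD and summed to 2863 to 3493 reads there against 3002 to 3188 in Uninjured libraries. The part of these cells in the Cox4i2 value was not tested.

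Among the tissue isoforms of complex IV the largest fold changes were found. Cox6a2, the isoform of subunit 6a known from heart and skeletal muscle, had 20.7, 19.1 and 31.2 normalized reads in GFP, 32, 34.7, 27.1 and 38.9 in HDAC5AA libraries and 22.8, 34.3, 22.6 and 11.3 in HDAC5DAD libraries. Uninjured libraries had 1.15, 1.67, 0 and 0. Every injured library was above every Uninjured one, in low counts: 72, 121 and 99 reads in all against 3.

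Pooled per read, the ratio to Uninjured was 37.6 in GFP (exact 95% interval 12.3 to 186), 51.8 in HDAC5AA (17.3 to 255) and 37.7 in HDAC5DAD (12.5 to 186), which covers counting error only. On the log2(value + 1) scale the gene rose by 4.03 ± 0.48, 4.44 ± 0.39 and 3.90 ± 0.45 (limma adjusted p = 5.44e-06, 1.78e-07 and 3.78e-06). The authors' deposited table gives smaller log2 fold changes, 0.99 in GFP, 1.23 in HDAC5AA and 1.04 in HDAC5DAD, and the cause of the gap was not tested. The 3 comparisons share the Uninjured libraries and are not independent. Cox6a2 made up 1.40 ± 0.41%, 1.90 ± 0.32% and 1.25 ± 0.45% of the 2 subunit 6a genes per kb in GFP, HDAC5AA and HDAC5DAD, against 0.036 ± 0.043% in Uninjured retinas.

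Cox6a2 lies on the minus strand of chromosome 7 (mm10, 128205435 to 128206387) inside Itgad, a gene of the opposite strand. Of the 38 annotated exons of Itgad, 2 cover 137 bases of the Cox6a2 gene span, introns included. Of the 50-base stretches of Cox6a2 transcripts, 3.33% also occur in those of Itgad. Itgad, an integrin of myeloid cells, was not analysed here. The strand mode of counting is not given in the sources used here, and without it, reads of the 2 genes cannot be told apart. The neighbouring myeloid integrin Itgax had 119, 168 and 200 reads in GFP, HDAC5AA and HDAC5DAD against 6 in Uninjured, a ratio of 31.0, 36.0 and 38.1, and Itgam had a ratio of 3.79, 3.88 and 4.07. Armc5 and 9130023H24Rik, on the other side, were not called.

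Microglia and macrophage markers, all 10 detected, summed to 2726 to 3999 reads in GFP, 3244 to 5492 in HDAC5AA and 3885 to 5734 in HDAC5DAD, against 1001 to 1199.9 in Uninjured libraries. Of 13 skeletal muscle markers 6 were measured, 0 rose in any group by limma, edgeR or DESeq2, also at an unadjusted p under 0.05, and 1 fell in HDAC5DAD. They summed to 716 to 749.9 reads in GFP, 559 to 659.5 in HDAC5AA and 588 to 646 in HDAC5DAD, against 607 to 732 in Uninjured. The part of microglia and macrophages in the Cox6a2 counts was not tested. Other muscle isoforms were not called: Cox7a1 was at -0.17 ± 0.17, -0.25 ± 0.17 and -0.30 ± 0.19, and Cox8b at 0.69 ± 0.44, -0.58 ± 0.36 and -0.0081 ± 0.38.

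Cox6b2, the isoform of subunit 6b known from testis, was called in the other direction. It had 68.7, 80.7 and 73.3 reads in GFP, 80.4, 61.6, 74 and 48.6 in HDAC5AA libraries and 72.6, 56.7, 55.6 and 70.6 in HDAC5DAD libraries, against 100.2, 107, 95.6 and 77.8 in Uninjured libraries. HDAC5DAD libraries lay below all Uninjured ones, and the GFP and HDAC5AA libraries overlapped them. The gene fell by 0.53 ± 0.16 in HDAC5AA (limma adjusted p = 0.0442) and by 0.57 ± 0.14 in HDAC5DAD (limma adjusted p = 0.0102), and stood at -0.35 ± 0.14 in GFP (limma adjusted p = 0.137). Its share of the 2 subunit 6b genes per kb was 3.52 ± 0.27% in GFP, 2.82 ± 0.57% in HDAC5AA and 2.77 ± 0.53% in HDAC5DAD, against 3.98 ± 0.59% in Uninjured retinas. The testis list gave no value, with 0 of 6 genes measured.

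Its promoter and those of the general isoforms Cox6b1 and Cox6a1 are shown to set a rare isoform beside abundant ones, over the same span and with motifs in capitals as above. For Cox6a2 none is shown. Cox6b2, minus strand of chr7:4753045-4753344, has no searched motif, Cox6b1, minus strand of chr7:30626065-30626364, has an ETS match, and Cox6a1, minus strand of chr5:115348909-115349208, has an NRF1 and an ETS match.
Cox6b2: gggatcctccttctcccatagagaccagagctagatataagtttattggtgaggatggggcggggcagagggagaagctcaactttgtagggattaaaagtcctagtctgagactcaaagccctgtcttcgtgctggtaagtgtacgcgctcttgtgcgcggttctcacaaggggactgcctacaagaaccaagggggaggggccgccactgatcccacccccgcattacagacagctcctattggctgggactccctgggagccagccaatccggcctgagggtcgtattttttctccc
Cox6b1: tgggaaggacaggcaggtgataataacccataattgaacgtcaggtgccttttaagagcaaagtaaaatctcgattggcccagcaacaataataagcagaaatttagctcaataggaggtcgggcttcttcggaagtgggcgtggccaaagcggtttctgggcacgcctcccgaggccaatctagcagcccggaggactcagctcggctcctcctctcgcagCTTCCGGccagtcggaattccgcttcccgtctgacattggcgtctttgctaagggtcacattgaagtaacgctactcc
Cox6a1: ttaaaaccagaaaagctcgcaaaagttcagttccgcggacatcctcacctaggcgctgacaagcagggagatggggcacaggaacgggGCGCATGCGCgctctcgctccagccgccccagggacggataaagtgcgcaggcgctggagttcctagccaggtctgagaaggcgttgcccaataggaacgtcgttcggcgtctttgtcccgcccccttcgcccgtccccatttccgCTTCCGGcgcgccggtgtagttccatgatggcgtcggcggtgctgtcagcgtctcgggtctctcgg

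The mitochondrially encoded members were not called in GFP, HDAC5AA or HDAC5DAD against Uninjured by limma, edgeR or DESeq2 on all libraries. The authors' deposited table calls mt-Nd2 lower in HDAC5DAD, at -0.30 on the log2 scale (adjusted p = 0.0237 in the authors' deposited table), and no other of the 7. At an unadjusted p under 0.05 there were 0, 0 and 2 of 7 with limma, 0, 0 and 2 with edgeR and 0, 0 and 3 with DESeq2. Over all genes the shares were 23.1, 17.9 and 23.4% with limma, 24.3, 18.9 and 24.7% with edgeR and 19.2, 15.5 and 21.3% with DESeq2. In GFP 2 of 7 were negative with a median of 0.080, and in HDAC5AA 1 of 7 with a median of 0.095. These signs moved with the ribosomal RNA class: at 1% or more, 7 of 7 were negative in GFP (median -0.081, also with the class as a term) and 4 of 7 in HDAC5AA (median -0.014), and under 1%, 1 of 7 in HDAC5AA (median 0.16). In HDAC5DAD 7 of 7 were negative with a median of -0.30, while nuclear members had a median of -0.0094. The 7 genes were measured in the same libraries, so such counts of signs are not 7 independent observations.

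mt-Nd1 had 16280.1, 13056 and 13376 reads in GFP, 11496, 14211, 13709 and 14216 in HDAC5AA libraries and 9075, 12333, 12661 and 9092 in HDAC5DAD libraries, against 15156, 13329.9, 10477 and 14241 in Uninjured libraries. The HDAC5DAD libraries fell into a low pair, replicates 1 and 4, and a pair within the Uninjured range. The fold change in HDAC5DAD was -0.31 ± 0.17 (limma adjusted p = 0.341). mt-Cytb had the same low pair, with 9203, 10828, 11283 and 8539 reads in HDAC5DAD against 13938, 12527, 9366 and 13345 in Uninjured libraries, and a fold change of -0.30 ± 0.15 (limma adjusted p = 0.281).

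mt-Co1 had 54344, 72959, 73919.9 and 52534 reads in HDAC5DAD, against 75619, 59566, 68918 and 74391 in Uninjured libraries (-0.15 ± 0.14, limma adjusted p = 0.6). mt-Nd6, the gene that is read from the other strand of the mitochondrial genome, varied less within HDAC5DAD, with 944, 914, 898 and 880.3 reads. Uninjured libraries ranged more widely, at 1184, 1043, 836 and 1249, and the fold change was -0.23 ± 0.10 (limma adjusted p = 0.17). mt-Nd6 overlaps mt-Nd5 on the opposite strand. By group, mt-Nd6 averaged 909 ± 26.9 reads in HDAC5DAD (SD, n = 4), the narrowest spread of the 7 genes there.

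The low HDAC5DAD pair had at least 1% ribosomal RNA and the other pair under 1%. Between libraries with at least 1%, 2 in each of these groups, all 7 mitochondrially encoded members were lower in HDAC5DAD than in Uninjured. Their median was -0.63, with adjusted p of at most 0.000807 in limma. Members called lower there numbered 9 (9.18%, beside 4.75% of all genes). Between libraries with under 1% the median of the 7 was 0.034 and none of them was called, a comparison chosen after seeing the data. The mitochondrial share was 0.447 and 0.430% in the HDAC5DAD libraries with at least 1% and 0.561 and 0.585% in those under 1%, against 0.611 and 0.615% and then 0.504 and 0.521% in Uninjured. Without Uninjured replicate 3, the deepest library, mt-Cytb, mt-Nd2, mt-Nd4, mt-Nd5 and mt-Nd6 were called lower in HDAC5DAD. With Cox6b2 that made 6 members (6.12%, beside 5.65% of all genes), and without HDAC5DAD replicate 2 there were 2 (2.04% beside 5.49%).

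**Figure D5:**
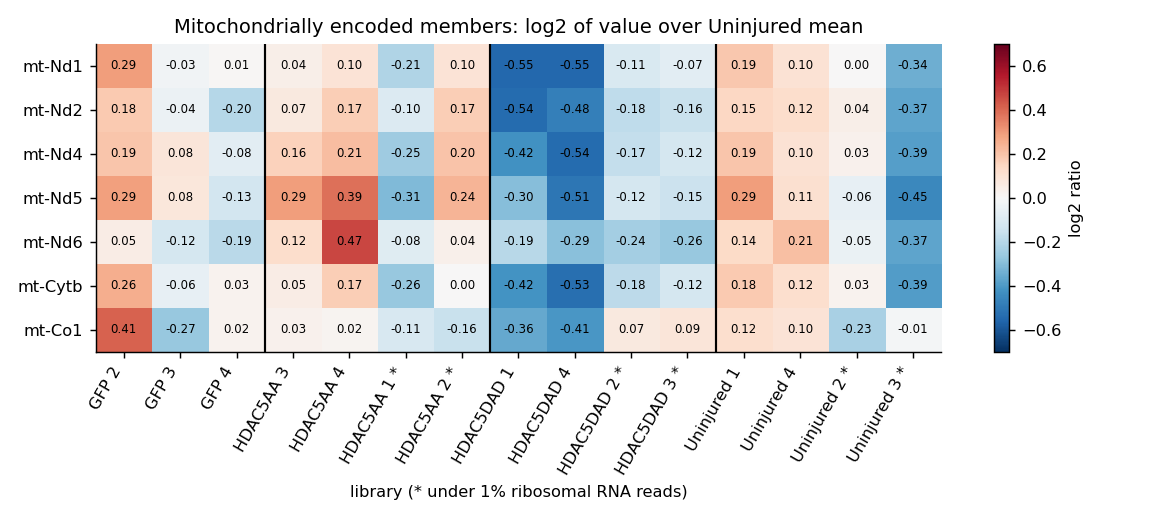
Log2 ratio of each library's value to the Uninjured mean (colour and number) for the 7 mitochondrially encoded members, with libraries grouped and those under 1% ribosomal RNA starred. HDAC5DAD replicates 1 and 4 are the lowest libraries for mt-Nd1, with 9075 and 9092 reads.

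Matching to other copies limits these genes. The share of 50-base stretches also found in another annotated gene was 62.2% for mt-Nd4 and 51.1% for mt-Co1, 8.19% for mt-Nd2 and 7.61% for mt-Nd5, and 0 for mt-Nd1, mt-Cytb and mt-Nd6. Among nuclear members Ndufaf2 had 64.1%. At least 1 such stretch occurred in 56 of the 98 members, and 46 members overlap another gene, 35 of them on the opposite strand. Values of these genes are uncertain to that extent.

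Between injured groups no member was called by limma or edgeR, and DESeq2 called 1. For HDAC5AA against GFP, called genes made up 0% of all 19495 genes in either direction. At an unadjusted p under 0.05 limma counted 8 members (8.16%, beside 6.59% of all genes), edgeR 6 (6.12% beside 6.6%) and DESeq2 8 (8.16% beside 5.02%). Nuclear members were positive for 71 of 91 with a median of 0.065, against a median of 0.003 over all genes. Without overlap, 10 nuclear members lay above GFP and 2 below, against 4.22% and 3.68% of all genes.

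For HDAC5DAD against GFP, called genes were also 0% in each direction by limma and edgeR, and DESeq2 called 46 higher and 13 lower over all genes. The nuclear members were positive for 82 of 91 with a median of 0.11, and the mitochondrially encoded ones negative for 7 of 7 with a median of -0.35, beside 0.0011 over all genes. At an unadjusted p under 0.05 limma counted 31 members (31.6%, beside 11.5% of all genes), edgeR 27 (27.6% beside 12.5%) and DESeq2 35 (35.7% beside 10.3%). Cox4i2 was the closest to a call, at 0.37 ± 0.09 (limma adjusted p = 0.195; 0.048 by DESeq2). Without overlap, 16 nuclear members lay above GFP and 0 below, and 0 mitochondrially encoded ones above and 4 below, against 5.81% and 5.13% of all genes. Among libraries with at least 1% ribosomal RNA, mt-Cytb, mt-Nd1, mt-Nd2 and mt-Nd4 were lower in HDAC5DAD, beside 8 genes higher and 5 lower of all 19495.

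For HDAC5AA against HDAC5DAD, called genes made up 0.00513% of all genes in each direction and no member was among them. Nuclear members were negative for 69 of 91 with a median of -0.039, and mitochondrially encoded ones positive for 7 of 7 with a median of 0.38, against a median of -0.0056 over all genes. At an unadjusted p under 0.05 limma counted 12 members (12.2%, beside 6.78% of all genes), edgeR 15 (15.3% beside 6.63%) and DESeq2 13 (13.3% beside 5.38%). Without overlap, 2 mitochondrially encoded members lay above HDAC5DAD, mt-Nd2 and mt-Nd6, and 3 nuclear ones below, against 1.69% and 1.52% of all genes. In libraries with at least 1% ribosomal RNA 4 mitochondrially encoded members were higher, beside 4 genes higher and 6 lower of all 19495, and in those under 1% limma called no gene. These comparisons share GFP or HDAC5DAD libraries with one another.

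The lists of genes around the respiratory chain hold 148 entries measured. In GFP 2 were called higher and 13 lower (10.1%, beside 11.4% of all genes called in either direction). In HDAC5AA it was 1 and 1 (1.35% beside 8.55%) and in HDAC5DAD 4 and 3 (4.73% beside 13.3%). Each share lay under that of all genes called in either direction. The GFP calls were mostly lower, 13 of 148 beside 5.83% of all genes, with 2 higher beside 5.57%. Of the 6 nucleotide and phosphate carriers and uncouplers measured, Slc25a5, which exchanges ADP for ATP, fell by 0.27 and Slc25a3, which imports phosphate, by 0.18 in GFP, while Ucp2 rose by 0.67 in GFP and 0.61 in HDAC5DAD. Of 17 citric acid cycle genes, Idh3a and Idh3b, subunits of isocitrate dehydrogenase, fell by 0.27 and 0.20 in GFP, and none was called in HDAC5AA or HDAC5DAD. Of 8 complex V assembly and control genes, Fmc1 and Atpif1, the ATP synthase inhibitor, fell by 0.27 and 0.24 in GFP.

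Of 15 electron carriers and feeder enzymes, Cyc1 fell by 0.24 in GFP and Coq4, of ubiquinone synthesis, rose by 0.36 in HDAC5DAD. Aox1 rose by 1.28, 0.92 and 1.23 in GFP, HDAC5AA and HDAC5DAD; in the mouse it is aldehyde oxidase, not a part of the chain. Of 13 hypoxia targets, 4 fell in GFP, among them Hk2, Bnip3 and Pdk1 by 0.75, 0.38 and 0.31, Pdk1 fell by 0.27 in HDAC5AA and Hk2 by 0.37 in HDAC5DAD. The hypoxia list holds genes of glycolysis, as Hk2 is.

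Of 16 regulators of mitochondrial biogenesis, Esrrb and Esrra fell by 0.84 and 0.21 in GFP, and Esrrg and Prkaa2 by 0.19 and 0.21 in HDAC5DAD. Of 16 complex I assembly genes 1 was called, Ndufaf6 in HDAC5DAD. No gene was called in any of the 3 groups by limma, edgeR or DESeq2 among 26 genes of mitochondrial DNA expression, 21 of complex IV assembly and 10 of complex II and III assembly. At an unadjusted p under 0.05 limma counted 3, 2 and 4 of the 26, 4, 0 and 2 of the 21, and 1, 1 and 0 of the 10 in GFP, HDAC5AA and HDAC5DAD. Over all genes it counted 23.1, 17.9 and 23.4% in the same order.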

How the data were processed

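RNA of whole mouse retina was sequenced after ribosomal RNA depletion. Per the submitters' processing notes, STAR, HTSeq and DESeq2 were used with the mm10 genome; versions and strand mode are not given in the sources used here. The authors deposited 1 table per injured group with normalized counts (the signal values used here), their log2 fold changes and their p-values. Dividing by the value of 1 read gave whole reads for 100% of values (within 0.01), and Uninjured reads were equal between tables in 78300 of 78300 and 78780 of 78780 values. The main test was limma-trend (limma 3.58.1, R 4.3.3) on log2(value + 1), restricted to gene means not under 1, in each table against Uninjured, two-sided, Benjamini-Hochberg adjusted over the table, called under 0.05. Fold changes on this scale understate changes of low genes. Values per kb divide by all annotated exon bases of a gene (4912 for Atp5g1, 2181 for Atp5g3), not by the length of a transcript. Levels and shares set between genes therefore depend on the annotation. Injured groups were compared on the 15 joined libraries, scaled by median-of-ratios, which is also the scale of the printed reads. On recovered reads edgeR 4.0.16 called 1095 genes up and 1141 down for GFP, 1037 up and 654 down for HDAC5AA, and 1468 up and 1064 down for HDAC5DAD; DESeq2 1.42.0 was a further alternative. Per library intervals are 95% Wilson, and intervals and ratios cover counting error only.

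Named were all mitochondrially encoded members, members past the threshold, tissue isoforms, the extremes of each complex, and up to 3 called genes per list and direction. The members, the 10 pathway lists and the 13 cell type lists were chosen with earlier results of these data known.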

Additional observations from a re-analysis of the deposited data

Results flagged for a closer look

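In groups of 4 libraries, 8 values stood apart from the other 3 of their group by Dixon's criterion, out of 132 groups of named members looked at. Chance flags about 1 group in 20, or 6.6 of these, so the number is near what chance gives. Cox5a in HDAC5AA replicate 1 had 859.1 normalized reads, with the others at 721.8 to 728.6. Cox7a2 and Sdhd were low in HDAC5AA replicate 4, at 939.7 reads against 1165 to 1208 and at 842.4 against 946.8 to 958.7 in the other HDAC5AA libraries. mt-Nd4 was low in HDAC5AA replicate 1, at 3306 reads against 4391 to 4549. Ndufaf2, an assembly factor of complex I that shares most of its sequence stretches with other genes, was high in HDAC5DAD replicate 2, at 164.9 reads against 138.2 to 141.6.

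Uninjured replicate 2 was the library that stood apart for 3 members. Ndufa8 was high there, at 596.4 reads with the other Uninjured libraries at 427.2 to 439.9. Atp5k was low, at 886.2 against 995.7 to 1008, and Cox7b, a small subunit of complex IV, was low, at 861.2 against 1012 to 1038.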

How the results depend on the processing

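Of 372 alternatives to the 24 summary values, 333 left them in place, and of 514 alternatives to the 26 called members, 375 kept the call, 139 lost it and 0 reversed. Members lower in GFP (15) numbered 6 with the replicate number as a block (6.12%, beside 3.75% of all genes). They numbered 7 in libraries with at least 1% ribosomal RNA (7.14% beside 3.87%) and 4 with that class as a term (4.08% beside 3.46%). With 1 library left out they numbered 5 to 17 (5.1 to 17.3% beside 3.97 to 5.79%). The GFP nuclear median was -0.137 at 1% or more. Members lower in HDAC5AA (4) numbered 2 by DESeq2 (2.04% beside 3.05%) and 1 at 1% or more (1.02% beside 1.84%). They numbered 0 under 1% (beside 0.812%) and 0 to 3 with 1 library left out (0 to 3.06% beside 2.26 to 3.08%). Members higher in HDAC5DAD (4) numbered 2 with the block (2.04% beside 7.11%) and 2 at 1% or more (2.04% beside 5.01%). They numbered 1 under 1% (1.02% beside 5.28%) and 2 to 4 with 1 library left out (2.04 to 4.08% beside 6.2 to 8.06%). Members lower in HDAC5DAD (1) numbered 9 at 1% or more (9.18% beside 4.75%). With 1 library left out they numbered 1 to 6 (1.02 to 6.12% beside 3.76 to 5.65%). The nuclear median of HDAC5DAD was -0.101 at 1% or more and 0.075 under 1%, and its mitochondrial median -0.625 and 0.034. Against GFP, HDAC5DAD had 1 member higher by DESeq2 (1.02% beside 0.324%) and 4 lower at 1% or more (4.08% beside 0.0256%). HDAC5AA had 4 higher than HDAC5DAD at 1% or more (4.08% beside 0.0205%). The mitochondrial median of that comparison was 0.620 there and 0.10 under 1%, and its nuclear median -0.093 under 1%. The cause of these shifts was not tested. With 1 library left out, the GFP mitochondrial median ran from -0.041 to 0.149 and that of HDAC5AA from -0.024 to 0.154, so neither has a settled sign. The under 1% comparison was added after seeing the data. Nothing states that replicate numbers pair the samples. Deviations of same-numbered libraries from their group means had correlations of -0.17 to 0.24, which cannot settle whether they were handled together. The block is therefore not read as a paired test. Low counts limit Cox6a2 and Cox8b.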

Other observations

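The mitochondrial ribosomal RNAs, which are not members but count among the ribosomal RNA features, varied more between libraries than the mitochondrially encoded members did. mt-Rnr1 had 9144, 9052 and 16037 normalized reads in GFP, 1659.6, 1805, 23197 and 106882 in HDAC5AA libraries and 46282, 3593, 1498 and 18987 in HDAC5DAD libraries, with 15159, 4659, 1454 and 16614 in Uninjured libraries. The ratio of mt-Co1 reads to the sum of the other 6 mitochondrially encoded members had a median of 1.78 (range 1.51 to 2.01) in the 9 libraries with at least 1% ribosomal RNA and of 2.01 (1.5 to 2.31) in the 6 with less.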
